A study of Mus musculus with 10 samples.

Results

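The 9 genes described here supply, receive and answer the glucocorticoid signal: Hsd11b1, which makes the active hormone inside cells, the receptors Nr3c1 and Nr3c2, and the hormone-responsive genes Fkbp5, Tsc22d3, Sgk1, Zbtb16, Mt1 and Mt2. They were taken by gene name from a table of 54532 mouse genes. The set was chosen by the lower FPKM of Hsd11b1 in MEKi than in vehicle hearts of these same data, so the values of Hsd11b1 between groups are given as a description, without a test. Messenger RNA was sequenced from 10 hearts of Rit1 M90I/+ mice, which carry a Noonan syndrome variant of the small GTPase RIT1 in the germline. The variant came from a conditional allele crossed to a CMV-Cre deleter strain, and both groups carried it. Vehicle was given to 5 mice. The other 5 received trametinib, an allosteric inhibitor of MEK1 and MEK2 (MEKi), at 1 mg/kg once a day. Dosing ran for 20 weeks from 4 weeks of age, and littermates of both sexes entered the cohort. The design has no wild-type heart and no heart treated with a glucocorticoid.

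Glucocorticoids circulate in part as inactive ketosteroids, which in mice means 11-dehydrocorticosterone. The enzyme encoded by Hsd11b1 sits in the endoplasmic reticulum and reduces it to corticosterone with NADPH made there by H6pd, while Hsd11b2 runs the opposite reaction. Corticosterone binds the glucocorticoid receptor (Nr3c1) and also the mineralocorticoid receptor (Nr3c2), which leave their HSP90 chaperone complex, enter the nucleus and bind DNA at glucocorticoid response elements. In the heart both receptors are present in cardiomyocytes, and where Hsd11b2 is scarce the mineralocorticoid receptor is held to be occupied mainly by glucocorticoid.

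The libraries held 13647167 to 18474002 fragments assigned to genes, and mitochondrial transcripts took 24.7 to 35.0% of them in vehicle and 24.0 to 28.7% in MEKi hearts. Cardiomyocyte markers were high in every heart, with a summed level of 14563 to 20089 FPKM in vehicle and 14342 to 19792 FPKM in MEKi. Atrial transcripts summed to 861 FPKM in vehicle 4, 391 in vehicle 5 and 708 in MEKi 2, and to between 2.86 and 42.7 in the other hearts. Xist was at 0.00662 FPKM or less in the vehicle hearts and at 5.16 FPKM or more in the MEKi hearts, and the Y-linked Ddx3y was at 10.3 FPKM or more in vehicle and 0 in all MEKi hearts. The X and Y transcripts thus split the hearts along the same line as treatment, and for every gene below the effects of the 2 cannot be told apart. Whether each library was a separate animal is given only as a biological replicate number, so p-values measure the spread between these 10 hearts.

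Levels are in FPKM, fragments scaled by gene length and by a size set for each heart, which puts genes of unlike length on one scale. That size was not the count of fragments assigned to genes. It was 14218190 against 15371692 fragments in vehicle 3, and 14416591 against 13647167 in vehicle 2. In vehicle hearts Mt1 was far above the other genes at 237 ± 26.4 FPKM (SD, n = 5). Tsc22d3 at 22.6 FPKM and Sgk1 at 11.9 FPKM came next, with overlapping ranges, then Nr3c1 at 7.76 and Hsd11b1 at 5.24 FPKM, whose ranges did not overlap each other. Nr3c2 at 2.30, Fkbp5 at 2.22 and Zbtb16 at 2.16 FPKM were not separated beyond their spread. Mt2 was close to 0.

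**Figure D1:**
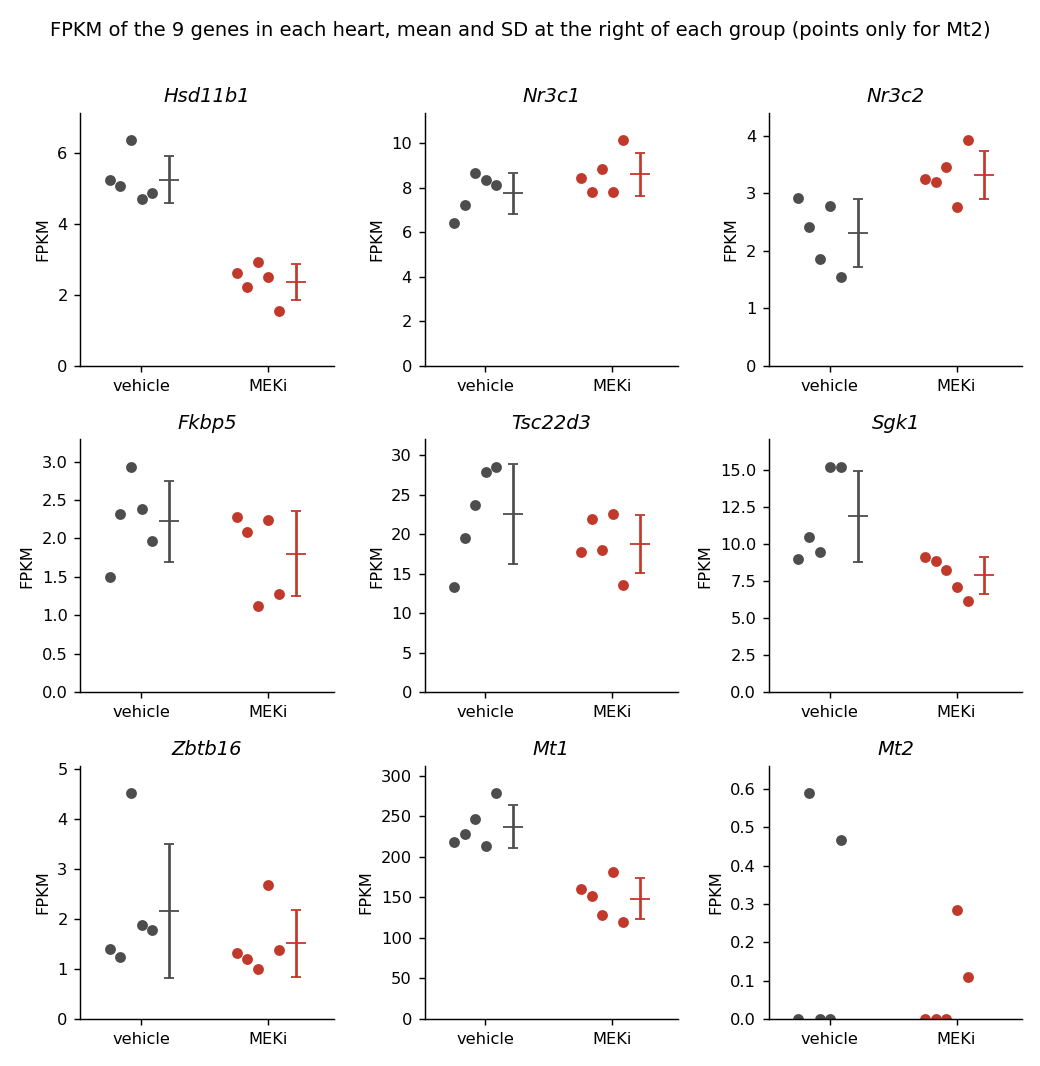
Each point is 1 heart, plotted as FPKM on an axis starting at 0, with vehicle in grey and MEKi in red; the bar beside each group is the mean with its SD over 5 hearts, drawn for all genes but Mt2. The vehicle and MEKi hearts occupy separate ranges for Hsd11b1 and Mt1, and share part of their range for the other genes.

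Hsd11b1 (ENSMUSG00000016194, chromosome 1, 193221634 to 193264075, mm10, minus strand) was read at 5.23, 5.07, 6.35, 4.70 and 4.87 FPKM in vehicle hearts 1 to 5. In MEKi hearts 1 to 5 it was read at 2.62, 2.22, 2.91, 2.50 and 1.56 FPKM. Every MEKi heart lay below every vehicle heart, vehicle 3 was the highest of all and MEKi 5 the lowest. The means were 5.24 ± 0.652 and 2.36 ± 0.515 FPKM (SD, n = 5 each), a change of −54.9% with MEKi, and the fitted log2 fold change of FPKM + 0.1 was −1.14 with an SE of 0.16. Each value rests on 104 to 384 fragments, and no exon base of Hsd11b1 is shared with another annotated gene. In libraries of whole tissue, fewer cells of a type that makes a transcript and less of the transcript in each cell cannot be told apart.

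The markers of cell types that may carry Hsd11b1 were read in the same hearts. The 7 fibroblast markers summed to 166 to 256 FPKM in vehicle and 176 to 228 FPKM in MEKi hearts, with none at 0 in any heart. They did not share a direction: 4 had a log2 fold change below 0 and 3 above, with a median of −0.03 and 0 called. Lum at 0.40 and Col1a1 at −0.38 had unadjusted p-values of 0.0349 and 0.0484 by limma, a level below 0.05 that 7.62% of all genes tested reached. The 6 macrophage markers summed to 178 to 321 FPKM in vehicle and 157 to 194 FPKM in MEKi, and all 6 had a log2 fold change below 0, with a median of −0.36 and 0 called. All 6 endothelial markers were also below 0, with a median of −0.14 and 0 called. Of the 6 cardiomyocyte markers 1 was below 0 and 5 were above, with a median of 0.16 and 0 called. Adipocyte markers were uneven within both groups, from 0.559 to 102 FPKM in vehicle and 6.27 to 102 FPKM in MEKi, and Adipoq, Lep and Retn were at 0 in at least 1 heart. The hearts with the most adipocyte signal, vehicle 4 and MEKi 2, had 4.70 and 2.22 FPKM of Hsd11b1, the lowest vehicle value and the second lowest MEKi value. Without the 3 hearts high in atrial transcripts the log2 fold change of Hsd11b1 was −1.21 with an SE of 0.21. Those hearts were set aside after the data were seen and the fall of Hsd11b1 chose the set, so this value is a description. The part of these cell types in the difference was not tested.

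Of the partners of Hsd11b1 in setting hormone supply that were tested, none was called. Hsd11b1 was chosen for its fall, so a larger change in it than in them was built into the choice. H6pd, which makes its NADPH, averaged 5.96 ± 1.07 FPKM in vehicle and 5.55 ± 0.759 FPKM in MEKi (log2 fold change −0.09 ± 0.14 SE, adjusted p = 0.911 by limma with Benjamini-Hochberg adjustment over all genes tested). Slc37a4, the transporter that brings glucose 6-phosphate to H6pd, averaged 5.99 and 6.08 FPKM. Abcb1b, a multidrug efflux pump that also exports steroids, averaged 1.48 and 1.11 FPKM with a log2 fold change of −0.41 and an adjusted p of 0.569, and its groups overlapped. Hsd11b2 was at 0 to 5 fragments per heart, so no difference was detectable at this depth. The adrenal enzymes Cyp11b1 and Cyp11b2 and the liver genes Serpina6 and Akr1d1 were at 0 in all 10 hearts. Besides Hsd11b1, 13 genes of steroid supply were listed and 5 passed the filter of a mean of at least 0.5 FPKM, of which 2 lay below and 3 above 0, their median log2 fold change being 0.02. Limma and voom called 0 of the 5, and 1 had an unadjusted p below 0.05 by limma, beside 7.62% of all genes tested.

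Beyond Hsd11b1, the comparison asks whether the receptors and the hormone-responsive genes were also unlike between groups. Across the 12602 genes that passed the filter, limma called 10 at an adjusted p below 0.05 (0.0794% of those tested), 7 lower and 3 higher with MEKi. Xist and Ddx3y were among the 10, and 0 genes were called when X, Y and mitochondrial genes were left out. Of the 7 other members that passed, limma called 0, and so did the fit of recovered fragment counts with voom. At an unadjusted p below 0.05 there were 3 of the 7, namely Mt1, Sgk1 and Nr3c2, where 7.62% of all genes tested stood at that level. The groups did not overlap for 1 of the 7, Mt1, and the same held in the lower direction for 0.849% of all genes tested. The log2 fold change was below 0 for 5 and above 0 for 2, beside 47.9% of all genes below 0 and a median over all genes of 0.01.

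Nr3c1, the glucocorticoid receptor, was close in level between groups. Vehicle hearts 1 to 5 had 6.40, 7.24, 8.67, 8.36 and 8.12 FPKM and MEKi hearts 8.45, 7.80, 8.87, 7.82 and 10.1 FPKM. The ranges overlapped, with vehicle 1 and 2 below all MEKi hearts and MEKi 3 and 5 above all vehicle hearts, and the log2 fold change was 0.15 ± 0.11 (SE) with an adjusted p of 0.781 by limma, and 0.09 without vehicle 1 or without MEKi 5. Its coefficient of variation was 11.9% in vehicle and 11.2% in MEKi.

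Nr3c2, the mineralocorticoid receptor (chromosome 8, 76899442 to 77245012, plus strand), leaned the other way from Hsd11b1. Vehicle hearts 1 to 5 had 2.91, 2.42, 1.86, 2.78 and 1.54 FPKM, and MEKi hearts had 3.24, 3.19, 3.45, 2.76 and 3.92 FPKM. The 4 MEKi hearts other than MEKi 4 were above all vehicle hearts, while MEKi 4 lay just under vehicle 1 and vehicle 4. The log2 fold change was 0.54 ± 0.17 (SE), and its adjusted p of 0.478 by limma was above the threshold. Its listed targets, Tsc22d3 and Sgk1 among them, did not share a direction. Of the 6 that passed the filter 3 lay below 0 and 3 above, with a median of −0.11 and 0 called. Without the members the median of the remaining 4 was 0.06. Among them the sodium pump subunit Atp1b1 averaged 46.0 FPKM in vehicle and 48.8 FPKM in MEKi. The epithelial channel genes did not pass, and Scnn1g was at 0 in all hearts.

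None of the chaperones that hold the receptors was called, and Hspa8 and Hsp90ab1 were the most abundant of them. The 14 genes of the receptor complex, Nr3c1, Nr3c2 and Fkbp5 among them, all passed the filter. They had 8 below and 6 above 0, 0 called, and −0.04 as their median log2 fold change. Without the members the median of the remaining 11 was −0.08. An unadjusted p below 0.05 by limma was found for 2 of the 14, Nr3c2 among them, beside 7.62% of all genes tested. Hspa8 averaged 451 and 391 FPKM and Hsp90ab1 420 and 414 FPKM in vehicle and MEKi. Hsp90aa1 was uneven in vehicle hearts, from 39.6 FPKM to 110 FPKM in vehicle 3, and its log2 fold change of −0.49 had an adjusted p of 0.707. Fkbp4, the cochaperone that favours the active receptor, averaged 131 ± 16.6 and 136 ± 12.9 FPKM, with an adjusted p of 0.945. The 12 coactivators and corepressors split evenly, 6 below and 6 above 0, with a median of 0.00. Smarca4, the remodelling ATPase, averaged 10.4 FPKM in vehicle and 9.73 FPKM in MEKi. The arginine methyltransferase Carm1 had a log2 fold change of 0.35 (adjusted p = 0.744 by limma), and the orphan receptor Nr2f2 one of −0.23 (adjusted p = 0.757).

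Fkbp5, the cochaperone that lowers the receptor's affinity for hormone and is itself induced by it, is often used as a readout of receptor activity (chromosome 17, 28399094 to 28517527, minus strand). It was read at 1.50, 2.32, 2.93, 2.38 and 1.97 FPKM in vehicle and at 2.28, 2.08, 1.13, 2.24 and 1.28 FPKM in MEKi hearts 1 to 5. The groups overlapped over most of their range, with MEKi 3 and MEKi 5 below all vehicle hearts and vehicle 2, 3 and 4 above all MEKi hearts. The log2 fold change was −0.31 ± 0.23 (SE, adjusted p = 0.786 by limma), and −0.21 without vehicle 3 or −0.17 without MEKi 3.

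Tsc22d3 encodes GILZ, an anti-inflammatory leucine zipper protein, and lies on the X chromosome (140539528 to 140600659, minus strand). It was read at 13.4, 19.5, 23.7, 27.8 and 28.6 FPKM in vehicle and 17.8, 21.9, 18.0, 22.6 and 13.6 FPKM in MEKi hearts. All MEKi hearts fell within the vehicle range. Its log2 fold change was −0.24 ± 0.21 (SE, adjusted p = 0.820 by limma), and −0.05 without vehicle 4, vehicle 5 and MEKi 2, the hearts high in atrial transcripts, of which the vehicle pair also held the 2 highest Tsc22d3 values. With single hearts left out it ran from −0.41 without vehicle 1 to −0.13 without MEKi 5.

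Sgk1 encodes a kinase that raises sodium transport and is induced through both receptors (chromosome 10, 21882184 to 21999903, plus strand). It was read at 8.98, 10.5, 9.45, 15.2 and 15.2 FPKM in vehicle and at 9.12, 8.84, 8.28, 7.09 and 6.18 FPKM in MEKi hearts. Only MEKi 1 overlapped the vehicle range, by passing vehicle 1. The log2 fold change was −0.56 ± 0.17 (SE) and its adjusted p of 0.463 by limma was above the threshold. Vehicle 4 and vehicle 5, the vehicle hearts high in atrial transcripts, were also the highest in Sgk1, and without the 3 atrial-high hearts the log2 fold change was −0.34, a value chosen for computation after the data were seen.

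Sgk1 was also the member with a full glucocorticoid response element in a promoter window. RefSeq start sites (GRCm38.p6) gave 14 windows of 300 bases for 7 of the 9 genes, each from 250 bases before a start to 50 bases from it. Both strands were searched for the palindrome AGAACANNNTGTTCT, which was present in 3 of 32851 mouse promoter windows (0.00913%). One of these was the fifth of the 6 Sgk1 windows, where the palindrome stands 189 bases before the start. A single arm of it, AGAACA, which the palindrome holds on both strands, was in 19.0% of all windows, in 3 of the 6 Sgk1 windows and in 1 of the 3 Tsc22d3 windows. The windows of Hsd11b1, Nr3c2, Fkbp5, Mt1 and Mt2, 1 for each gene, held neither. Only exact matches within these windows were sought, so elements farther away or with other letters would be missed. The 250 bases before that Sgk1 start, chr10:21993640-21993889 on the plus strand, lie inside the gene upstream of the first exon of a shorter transcript, and are shown because this exact palindrome is rare; capitals mark it.
Sgk1 window: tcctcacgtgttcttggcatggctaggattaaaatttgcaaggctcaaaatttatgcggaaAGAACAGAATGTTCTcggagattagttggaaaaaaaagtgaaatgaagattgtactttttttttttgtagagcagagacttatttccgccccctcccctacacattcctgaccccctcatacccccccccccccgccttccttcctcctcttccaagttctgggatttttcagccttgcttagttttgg

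Zbtb16, a zinc finger repressor strongly induced by glucocorticoid in many cells (chromosome 9, 48654297 to 48836222, minus strand), had 1 high heart in each group. It was read at 1.39, 1.23, 4.51, 1.88 and 1.78 FPKM in vehicle and 1.31, 1.19, 0.992, 2.67 and 1.39 FPKM in MEKi hearts. Vehicle 3 and MEKi 4 stood apart, and the remaining hearts of both groups lay between 0.992 and 1.88 FPKM. The log2 fold change was −0.41 ± 0.33 (SE, adjusted p = 0.813 by limma). It rested on those hearts, with −0.12 when vehicle 3 was left out and −0.63 when MEKi 4 was left out.

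Metallothioneins are small cysteine-rich proteins that bind zinc and copper, and their genes answer both to metal, through the factor Mtf1, and to glucocorticoid. Mt1 (chromosome 8, 94179082 to 94180327, plus strand) was read at 219, 228, 246, 214 and 279 FPKM in vehicle and 161, 152, 128, 181 and 119 FPKM in MEKi hearts. Every MEKi heart lay below every vehicle heart, with vehicle 4 and MEKi 4 the nearest. The means were 237 ± 26.4 and 148 ± 25.0 FPKM (SD, n = 5 each), a change of −37.4% with MEKi. The log2 fold change was −0.69 ± 0.13 (SE) from 2336 to 5058 fragments per heart, and the adjusted p of 0.125 by limma did not pass. Over the alternative settings that adjusted p ran from 0.0674 with voom to 0.651 without the 3 atrial-high hearts, while the log2 fold change stayed between −0.76 and −0.61.

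All 6 metal-response genes that passed the filter, Mt1 among them, had log2 fold changes below 0, with a median of −0.14 and 0 called. Mtf1 averaged 1.24 and 1.07 FPKM (log2 fold change −0.16, adjusted p = 0.866 by limma), the zinc exporter Slc30a1 3.48 and 3.18 FPKM (−0.12, adjusted p = 0.842) and the zinc importer Slc39a14 3.51 and 3.31 FPKM (−0.07, adjusted p = 0.911). Mt3 was uneven in both groups, from 1.45 to 7.55 FPKM in vehicle and 0.734 to 3.70 FPKM in MEKi, with a log2 fold change of −0.71 ± 0.51 (SE, adjusted p = 0.777 by limma).

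Mt2, which neighbours Mt1 on chromosome 8 (94172664 to 94173568, plus strand) and is usually induced with it, was almost without reads. It had 0, 5, 0, 0 and 4 fragments in vehicle hearts 1 to 5 and 0, 0, 0, 3 and 1 in MEKi hearts, against 2336 or more for Mt1 in every heart. The low value was therefore common to both groups and no difference was detectable at this depth. In the GENCODE M21 annotation 432 of the 588 exon bases of Mt2 (73.5%) are also exon of Gm45774 on the opposite strand, and Gm45774 had 0 to 4 fragments per heart. Mt1 shares no exon base with another gene. Tagln, a smooth muscle marker, was the one other listed gene of 144 with more than 50% of its exon bases shared. Of all its exon bases 67.9% were shared with genes on the opposite strand, and it had 3 to 15 fragments per heart. The library protocol does not state whether strand was kept, and the part of this overlap in the low values was not tested.

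**Figure D2:**
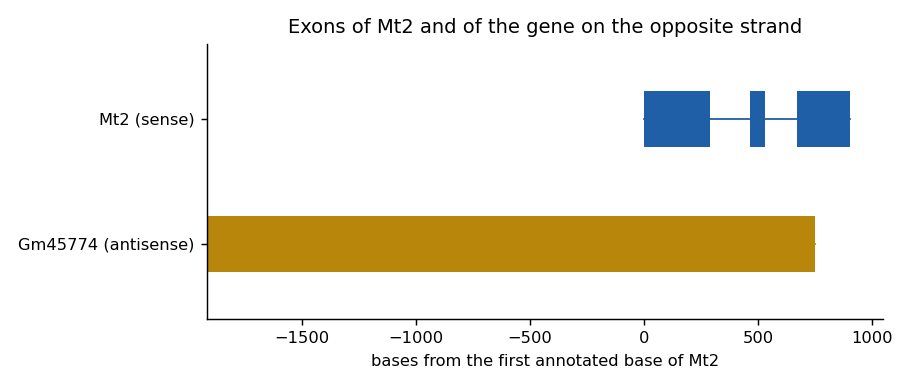
Exons of Mt2 (blue, 3 boxes joined by a line) and of Gm45774 (gold, 1 box) drawn to scale as bases from the first annotated base of Mt2. Gm45774 covers the first 2 Mt2 exons whole and the start of the last one, which leaves 156 Mt2 exon bases to Mt2 alone.

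The metallothionein promoters are shown because both carry several copies of the metal response element core. The core was searched on both strands as TGCACNC and TGCGCNC, which was present in 25.7% of all windows, with 3 or more copies in 1.97% and 4 or more in 0.517%. The Mt1 window had 3 copies, 1 of them 23 bases before the start and the others 2 and 20 bases past it. The Mt2 window had 4, at 223, 128 and 50 bases before the start and 4 bases past it. The 250 bases before each start follow, chr8:94178839-94179088 for Mt1 and chr8:94172368-94172617 for Mt2, plus strand, with the cores in capitals.
Mt1 window: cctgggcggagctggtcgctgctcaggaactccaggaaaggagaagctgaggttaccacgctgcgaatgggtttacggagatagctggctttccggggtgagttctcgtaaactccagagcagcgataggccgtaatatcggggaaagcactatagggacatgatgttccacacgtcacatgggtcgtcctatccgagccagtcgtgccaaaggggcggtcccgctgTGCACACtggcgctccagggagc
Mt2 window: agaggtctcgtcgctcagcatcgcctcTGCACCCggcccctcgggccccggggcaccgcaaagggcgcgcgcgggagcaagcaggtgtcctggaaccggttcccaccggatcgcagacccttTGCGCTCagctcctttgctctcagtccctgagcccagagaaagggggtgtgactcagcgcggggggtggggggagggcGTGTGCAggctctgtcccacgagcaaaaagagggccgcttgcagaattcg

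The wider list of genes commonly induced by glucocorticoid held 32 genes, Fkbp5, Tsc22d3, Sgk1, Zbtb16, Mt1 and Mt2 among them, and 30 passed the filter. Of these 22 had a log2 fold change below 0 and 8 above, with a median of −0.27, beside 47.9% of all genes tested below 0. An unadjusted p below 0.05 by limma was found for 10, beside 7.62% of all genes tested. None was called by limma or by voom. Without the members the median of the remaining 25 was −0.14, beside 0.01 over all genes tested. The list was assembled with results of these data already known, so the counts are a description.

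Of the genes in that list, Angptl4 and Ptgds had log2 fold changes farthest from 0. Ptgds, the prostaglandin D2 synthase, was read at 190 to 347 FPKM in vehicle and 82.8 to 168 FPKM in MEKi, without overlap (log2 fold change −1.02 ± 0.22 SE, adjusted p = 0.231 by limma). Pdk4, the kinase that shuts pyruvate dehydrogenase during fat oxidation, was at 24.5 to 55.8 and 13.4 to 23.4 FPKM, also without overlap (−0.95 ± 0.22, adjusted p = 0.273). Angptl4, a lipoprotein lipase inhibitor, was at 0.599 to 2.55 and 0.291 to 1.18 FPKM (−1.14 ± 0.38, adjusted p = 0.507). Lcn2, a siderophore-binding protein, had a log2 fold change of −0.72 (adjusted p = 0.569) and overlapping groups. Errfi1, a feedback inhibitor of the EGF receptor, had one of −0.62 ± 0.14 (adjusted p = 0.289) without overlap, and the transcription factor Cebpd one of −0.59 (adjusted p = 0.670) with overlap. The paper on these hearts already reported Errfi1 as lower after MEKi, from FPKM with no test given in the figure legend. The clock gene Per1 had a log2 fold change of −0.58 (adjusted p = 0.562) and overlapping groups. Groups without overlap in the lower direction, as for Ptgds, Pdk4 and Errfi1, were found for 0.849% of all genes tested. Other classic targets were on the opposite side of 0: Klf15 averaged 12.1 and 14.8 FPKM (0.31, adjusted p = 0.740), Ddit4 16.0 and 17.9 FPKM (0.23, adjusted p = 0.870) and Klf9 12.4 and 13.3 FPKM (0.13, adjusted p = 0.932). Farthest on that side was Trim63, which averaged 35.1 and 46.0 FPKM (0.40 ± 0.13 SE, unadjusted p = 0.00981 and adjusted p = 0.481 by limma). The induced genes were thus not all on one side.

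**Figure D3:**
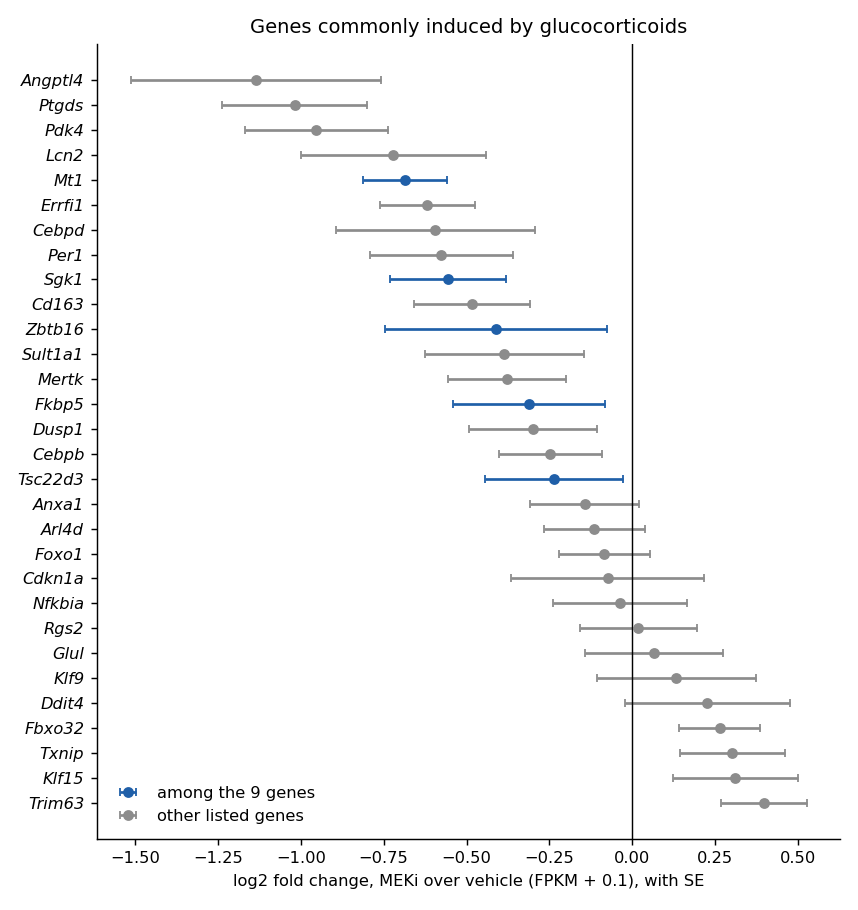
Log2 fold change of FPKM + 0.1, MEKi over vehicle, for the 30 induced genes that passed the filter, with the SE as horizontal bars; blue marks genes of the 9 and grey the others. The order runs from Angptl4 at −1.14 to Trim63 at 0.40, with 22 genes left of 0 and 8 right of it, and none passed the adjusted threshold.

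Genes that glucocorticoids commonly repress were mostly inflammatory and low in these hearts, and 9 of 14 passed the filter. Of these 7 lay below 0 and 2 above, their median log2 fold change was −0.41, and 0 were called by limma or voom. An unadjusted p below 0.05 by limma was found for 3, beside 7.62% of all genes tested. Il1b averaged 0.909 and 0.327 FPKM (−1.28 ± 0.46 SE, adjusted p = 0.548 by limma) on 2 to 44 fragments per heart. The metalloproteinase gene Mmp3 averaged 3.76 and 1.77 FPKM (−1.07, adjusted p = 0.569), with vehicle 5 and MEKi 2 the highest of their groups. The adhesion molecules Icam1 (4.28 and 3.63 FPKM) and Vcam1 (3.88 and 3.85 FPKM) had adjusted p-values of 0.757 and 0.959. The macrophage marker sums given above leaned the same way, and their part in these values was not tested. The induced and the repressed lists therefore had medians on the same side of 0.

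Within groups, the members were compared pair by pair after each group's mean was removed, over 28 pairs of the 8 genes past the filter and all 10 hearts. Exact two-sided permutation within groups (14400 pairings) left 1 pair past the threshold, Nr3c2 with Mt1. Pearson's r was −0.816 (exact permutation p = 0.000278, adjusted p = 0.00778) and Spearman's rho −0.770 (exact permutation adjusted p = 0.0331). Leaving out vehicle 5 and vehicle 1, the hearts farthest out in Nr3c2, gave r = −0.817. In vehicle, hearts 1, 4, 2, 3 and 5 ran from the most to the least Nr3c2, and Mt1 ran the opposite way but for vehicle 1 and 4. In MEKi, hearts 5, 3, 1, 2 and 4 ran from the most to the least Nr3c2, and Mt1 ran the opposite way but for MEKi 1 and 2.

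That relation depended on the scale. When the same values were rescaled to an equal sum in every heart (TPM), r was −0.475 and the exact permutation adjusted p 0.609, so the call was lost. Vehicle 3 and vehicle 5, low in Nr3c2 and high in Mt1, had the 2 largest mitochondrial shares of their group, 35.0 and 31.1%. In MEKi the 2 largest shares, 28.7 and 27.4%, were in MEKi 3 and MEKi 5, which were high in Nr3c2 and low in Mt1, the opposite of vehicle. The part of the mitochondrial share in the relation was not tested.

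**Figure D4:**
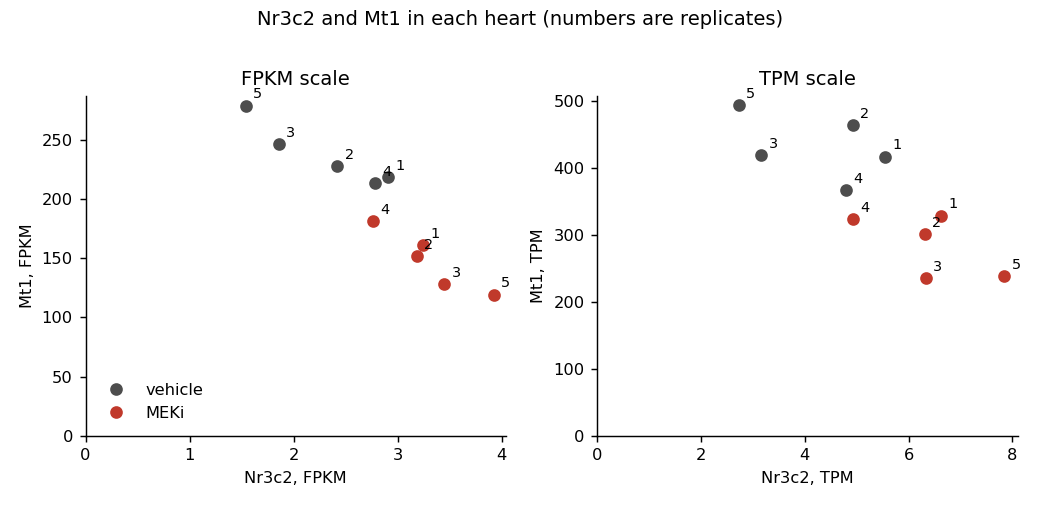
Nr3c2 against Mt1 in each heart, in FPKM on the left and in TPM on the right, with vehicle in grey and MEKi in red; numbers beside the points are replicate numbers. On the FPKM scale both groups slope downward (r = −0.816 with group means removed), and on the TPM scale the slope is looser (r = −0.475).

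Among the responsive genes Fkbp5, Tsc22d3, Sgk1, Zbtb16 and Mt1, 9 of the 10 pairs had r above 0, and none passed the threshold. Tsc22d3 and Sgk1 had r = 0.715 (exact permutation p = 0.0446, adjusted p = 0.348), and without vehicle 1 and MEKi 5 it was 0.453. Fkbp5 had r = 0.597 with Tsc22d3, 0.588 with Zbtb16 and 0.218 with Sgk1, with exact permutation adjusted p = 0.348, 0.348 and 0.705. Mt1 had r = 0.651 with Fkbp5, 0.592 with Tsc22d3 and 0.467 with Zbtb16 (exact permutation adjusted p = 0.348, 0.348 and 0.569). Hsd11b1 and Fkbp5 had r = 0.274 (exact permutation adjusted p = 0.705). Across the 28 pairs 17 had r above 0, and the lowest r was that of Nr3c2 with Mt1.

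The genes whose level went most closely with each of these were found among the 10704 genes averaging 1 FPKM or more, by Pearson's r over the 10 hearts with group means removed. For Hsd11b1 they were 4930429F24Rik (r = 0.927), Cmtm8 (0.913), Aktip (0.906), 1700056E22Rik and Zc3h12a (0.897 each). For Fkbp5 they were Manba (0.957), Hbegf (0.898), Rbbp9 (0.888), Ccnc (0.885) and Rnf19b (0.879). The hearts are few for so many genes and the points share library and depth, so these are a description. When any 1 heart was left out, 0 to 3 of the 5 genes named for Hsd11b1 stayed among its closest 5, and none stayed without MEKi 5. For Mt2 no such genes were sought, since it was under the filter.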

How the data were processed

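The authors deposited 1 table of FPKM per gene and heart, with gene lengths and coordinates. The submitters' processing notes name fastp, STAR 2.5, HTSeq 0.6.1 and mm10, and no strand setting is given in the sources used here. Hearts were grouped by treatment label (5 vehicle, 5 MEKi). Every value gave a whole number of fragments (within 0.01) from FPKM and gene length, and these fragments were used for depth and for a voom alternative. The filter kept genes averaging 0.5 FPKM or more, tested as log2(FPKM + 0.1) with limma 3.58.1 (trended eBayes) in R 4.3.3, with Benjamini-Hochberg adjustment over all genes tested and a threshold of 0.05; the pseudocount understates changes of low genes. Hsd11b1 entered the fit but is given without a p-value. The script was checked on simulated data. Of the gene identifiers, 98.33% had the same coordinates in GENCODE M21.

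The members and all lists were chosen with earlier results of these data known. Besides the members, the 2 highest and the 2 most changed genes of each list were named, with a set of fixed names (H6pd, Hsd11b2, Fkbp4, Per1, Klf9, Klf15, Pdk4, Ddit4, Mtf1, Slc30a1, Mt3), except that some named by this rule are not reported here; Adipoq, Lep, Retn, Scnn1g, Tagln, Gm45774, Trim63, Errfi1, Cebpd, Glul and the adrenal and liver genes at 0 were named after their values were seen. Pairs were compared by exact permutation within groups with Python 3.11.15 and scipy 1.17.1. Same-numbered hearts did not deviate together, so the replicate number was not used as a block. Marker sums not given in the report ran, in vehicle and MEKi, from 101 to 174 and 103 to 127 FPKM (endothelial), 51.8 to 94.6 and 62.5 to 100 FPKM (smooth muscle) and 0.544 to 4.64 and 0.815 to 3.94 FPKM (lymphocyte). Fragments are not independent molecules, so depth covers counting error only.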

Additional observations from a re-analysis of the deposited data

Results flagged for a closer look

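Zbtb16 in vehicle 3 was 4.51 FPKM, against 1.23 to 1.88 FPKM in the rest of its group, and the gap was 0.804 of the group's range, above Dixon's critical ratio of 0.710 for 5 samples. Zbtb16 in MEKi 4 was 2.67 FPKM, while the other MEKi hearts lay between 0.992 and 1.39 FPKM, with a gap of 0.765 of the range. In all 18 groups of 5 hearts were examined over the 9 genes, where chance alone would single out about 0.9, and these 2 were found.

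Of the 29 other listed induced genes, an even share would leave each heart the highest of its group for 5.8. Vehicle 3 was the highest for 9, among them Fkbp5 (2.93 FPKM), Klf9 (18.5 FPKM), Klf15 (17.7 FPKM) and Glul (109 FPKM). MEKi 4 was the highest for 10, among them Per1 (7.02 FPKM), Klf9 (16.8 FPKM), Ddit4 (23.2 FPKM) and Glul (130 FPKM). Vehicle 5, which was not apart in Zbtb16, was the highest for 10, so such counts were not particular to the hearts high in Zbtb16.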

How the results depend on the processing

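Over 22 alternatives to the fit (21 planned, 1 chosen after the data were seen), 0 members besides Hsd11b1 were called, every member kept its direction, and 607 of 631 compared values kept their direction and their side of the threshold or moved by less than their spread. The count of 10 genes called over all genes was 2 with a mean of at least 5 FPKM, 18 with array weights, 0 when genes of the X, the Y and the mitochondrion were dropped, 4 with the replicate block, 5 without the 3 atrial-high hearts, and 5 to 13 with 1 heart left out (5 without vehicle 2, 6 without vehicle 5). The block changed no call of a member. The metal-response median was −0.69 with a mean of at least 5 FPKM, where fewer genes were tested. Member pairs past the threshold numbered 0 on the TPM scale and 1 to 2 with 1 heart left out (2 without vehicle 4), and r of Nr3c2 with Mt1 on the TPM scale was −0.475. With 1 heart left out, r of Fkbp5 with Sgk1 ran from −0.013 (without vehicle 1) to 0.434 and r of Hsd11b1 with Fkbp5 from −0.102 (without MEKi 5) to 0.753. Of the 5 genes most like Hsd11b1, 3 stayed on the TPM scale and 0 to 3 with 1 heart left out. Where no reason is given, the cause was not tested. Depth limits Mt2, Hsd11b2 and Il1b.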
